A study of Mus musculus with 6 samples.

Results

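A set of 34 genes stood at least 2-fold lower with the short hairpin against Kap1 than with the control hairpin in each of the 3 pairs of libraries of this C2C12 series. The set was drawn from the 16631 genes, of 37991 listed, that had 10 or more counts in at least 1 library. Counts were divided by the library's total on genes and multiplied by 1e6 (counts per 1e6, CPM), and a gene was taken where log2 of (shKap1 CPM + 0.05) over (shCtrl CPM + 0.05) was -1 or less in every pair. Trim28, the targeted gene, met the same values and was left out by name, as were genes named Mmp or Prl2c, of which 0 met them. The members were thus selected on the measured knockdown differences, which are given as a description without a test.

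C2C12 is a mouse myoblast line of the C3H strain that divides in rich serum and forms contractile myotubes when serum is reduced. The groups were proliferating myoblasts carrying the lentiviral Kap1 hairpin (MB shKap1, 2 libraries), proliferating myoblasts with a lentiviral hairpin against luciferase (MB shCtrl, 2 libraries), and cells of both kinds after 48 hours of differentiation (MT shKap1 and MT shCtrl, 1 library each). All cells were thus transduced. Myoblasts grew in 10% fetal calf serum, and MT cells were kept in 2% horse serum with insulin, transferrin and selenium. Cytoplasmic polyA RNA was sequenced, so RNA held in the nucleus was not measured. Nothing in the labels says whether the 2 MB libraries of a group came from separate cultures or whether the transduced cells were a clone, so any p-value speaks to the spread among these libraries alone, and that spread may be technical.

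KAP1, encoded by Trim28, is a scaffold protein without DNA binding of its own. Zinc finger proteins with a KRAB domain bring it to DNA, where it gathers a histone methyltransferase, heterochromatin protein and deacetylases that silence transcription, most of all at retroelements. The title of the series concerns a phosphorylation of KAP1 and the function of MyoD, the transcription factor that drives muscle differentiation.

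Libraries held 36247530 to 49839994 counts on genes. Trim28 stood at 152 and 100.8 CPM in MB shKap1 and 122 CPM in MT shKap1, against 587 and 417 CPM in MB shCtrl and 382 CPM in MT shCtrl. Of the myoblast markers, Myod1 (3.49 and 20.4 CPM in MB shKap1, 11.8 and 31 CPM in MB shCtrl), Myf5, Cdh15 and Des were counted in every library, and Pax7 stayed at 0.301 CPM or below. The summed level of 54 contractile and late muscle genes was 898 and 1656 CPM in MB shKap1, 1041 and 1685 CPM in MB shCtrl, 1367 CPM in MT shKap1 and 20788 CPM in MT shCtrl. Smooth muscle and myofibroblast markers summed to 7901 and 3134 CPM in MB shKap1, 4663 and 2358 CPM in MB shCtrl, 7458 CPM in MT shKap1 and 6689 CPM in MT shCtrl. Macrophage and blood (7 of 14 listed genes counted), endothelial (5 of 10) and adipocyte markers (4 of 10) each summed to between 10.3 and 53.3 CPM in every library. Contractile genes were thus far lower in MT shKap1 than in MT shCtrl, and smooth muscle markers higher in shKap1 in each pair. The part of either in the members' values was not tested. In such bulk samples, fewer cells that express a gene and less of its RNA per cell cannot be told apart.

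The members were few beside the genes that passed the rule in 1 pair. Of all counted genes, 1.59% were at -1 or less in the MB replicate 1 pair, 2.67% in the MB replicate 2 pair and 7.83% in the MT pair, and 0.21% in all 3, Trim28 included. The mirrored rule, +1 or more in all 3 pairs, held for 162 genes (0.974%). Within the members the median log2 difference was -1.96, -1.54 and -1.80 in the MB replicate 1, MB replicate 2 and MT pairs, where the median over all counted genes was 0.03, 0.02 and 0.15. Since all 3 pairs entered the rule, nothing is read from that contrast. In 16 of the 34 members every shKap1 library was below every shCtrl library (1.56% of all counted genes), and in 25 both MB shKap1 libraries were below both MB shCtrl libraries (10.9%); the rule bears on these counts too.

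**Figure D1:**
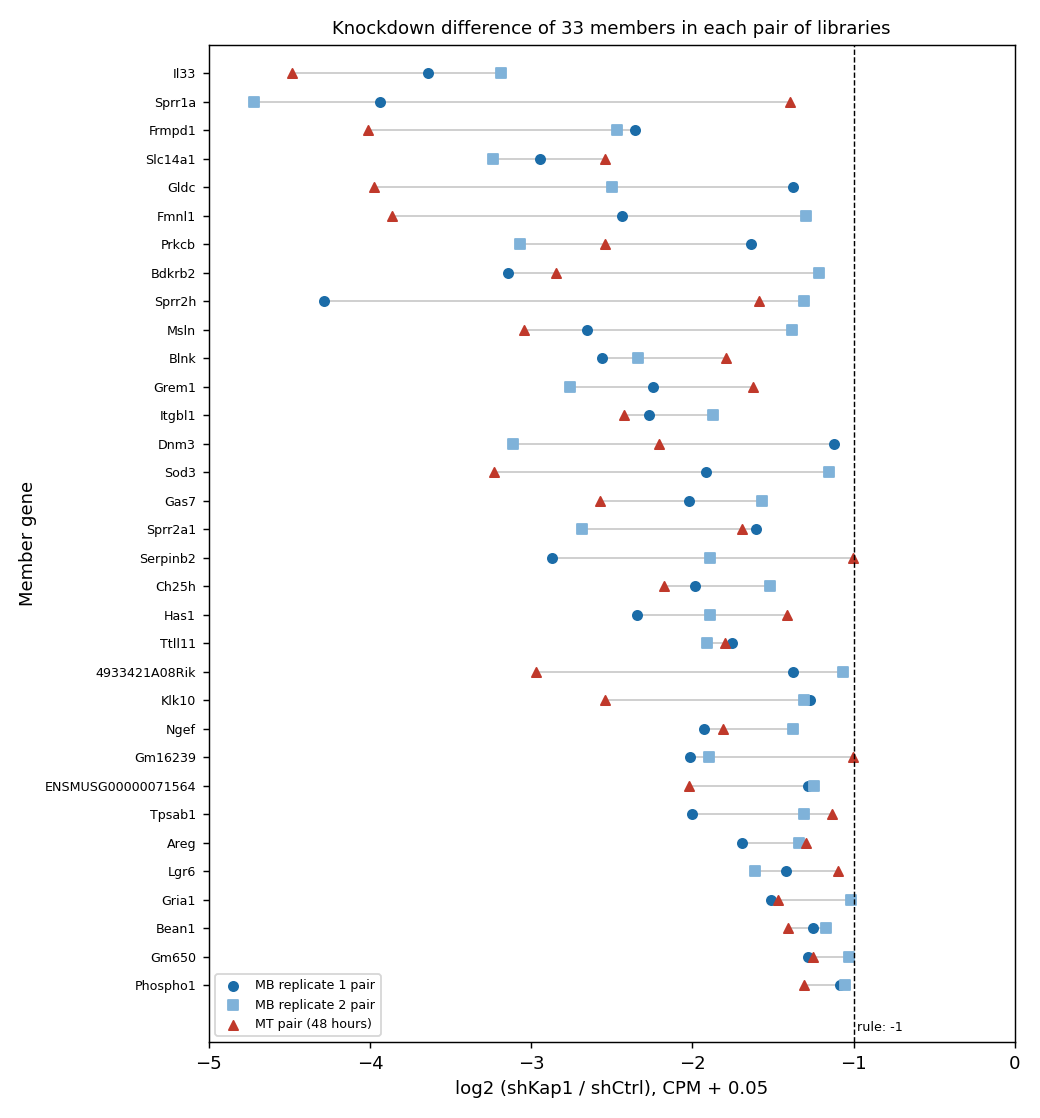
Knockdown difference of 33 of the 34 members on the log2 scale (x axis, shKap1 over shCtrl, CPM + 0.05), with 1 point for each pair of libraries and a grey line over their range. Every point lies at or left of the dashed line at -1, and Il33 and Sprr1a reach -4.49 in MT and -4.72 in the MB replicate 2 pair.

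How firmly a member sat inside the rule depended on its counts. Members ran from 207 CPM (Grem1) to 0.124 CPM (Gm650) in the mean of the 3 shCtrl libraries, with 21 at 1 CPM or more and 13 below. Per kilobase of annotated exon, Grem1 stood at 49.99 CPM in shCtrl, Sprr1a at 12.96, Il33 at 6.82, Ch25h at 5.48, Msln at 5.43 and Areg at 4.22, and the remaining members were lower. The exact 95% interval of the shKap1 over shCtrl ratio covers counting error only. It lay below 1 in all 3 pairs for 23 members and below 0.5 in all 3 pairs for 10. The rule chose the members on these same pairs, so these counts describe their depth and are no test. The share over all counted genes was not taken. A shKap1 library held 3 or fewer counts for 17 members, and 0 counts for 9 of these. With a pseudocount of 0.5 CPM in place of 0.05, the members that still met the rule were Blnk, Ch25h, Grem1, Il33, Msln, Ngef and Ttll11.

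Among members of at least 1 CPM, Serpinb2 (-1.001) and Phospho1 (-1.05) lay just inside the rule by their least negative pair. Just outside were Tmprss11b, a membrane serine protease (-0.99), and Csrp3, the muscle LIM protein (-0.97). These 2 values come from MB pairs and rest on few counts, since both genes were at 0.418 CPM or below in every MB library. Their means passed 1 CPM through MT shCtrl, at 2.97 and 29.7 CPM.

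Promoter windows (250 bases before to 50 after a gene's start, RefSeq, GRCm38.p6) were found for 22 of the 34 members, 24 windows in all. The letters TATAAA, on either strand, stood in 8 of the 24 windows (33.3%), against 13.6% of all 32851 windows and 7.65% of the windows of counted genes. The AP-1 letters TGANTCA, a palindromic motif apart from its middle base, stood in 5 of 24 (20.8%), against 7.81% and 5.59%. CAGCTG, an E-box of the kind MyoD binds, was in 8 of 24 (33.3%, against 16.3% and 16.05%), and GGAATG, the TEAD letters, in 4 (16.7%, against 14.7% and 12.7%). GGGANNNCC, which fits many NF-kB sites, was in 7 (29.2%, against 18.6% and 23.3%). The E-box and TATA letters cannot overlap, and the overlap of other motifs was not counted. The median ratio of observed to expected CpG was 0.385 in the members' windows, 0.384 over all windows and 0.723 over those of counted genes. Windows of 1 gene can overlap, as those of Serpinb2 do, so the same site can be counted more than once. By gene, TATAAA stood in 6 of the 22 members and the AP-1 letters in 4. The share by gene over all genes was not taken, so these counts are a description. A match is no measure of binding.

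The windows of Sprr1a (chr3:92485832-92486131, minus strand), Sprr2h (chr3:92385435-92385734, plus strand), Serpinb2 (chr1:107511173-107511472, plus strand), Areg (chr5:91139349-91139648, plus strand) and the downstream start of Il33 (chr19:29945540-29945839, plus strand) are shown because each holds TATAAA close to its start. Each reads 5′ to 3′ on the gene's strand, with TATAAA and TGANTCA matches in capitals.
Sprr1a: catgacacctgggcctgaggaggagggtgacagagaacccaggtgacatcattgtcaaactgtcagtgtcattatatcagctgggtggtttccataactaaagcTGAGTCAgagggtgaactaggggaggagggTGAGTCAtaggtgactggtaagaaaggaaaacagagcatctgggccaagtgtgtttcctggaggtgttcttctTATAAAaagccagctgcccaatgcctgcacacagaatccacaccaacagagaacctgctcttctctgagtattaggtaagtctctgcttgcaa
Sprr2h: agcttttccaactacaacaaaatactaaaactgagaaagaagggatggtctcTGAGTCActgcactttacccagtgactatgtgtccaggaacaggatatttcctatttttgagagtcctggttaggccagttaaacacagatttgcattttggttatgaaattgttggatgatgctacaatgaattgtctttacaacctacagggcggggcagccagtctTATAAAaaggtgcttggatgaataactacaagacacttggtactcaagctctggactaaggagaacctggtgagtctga
Serpinb2: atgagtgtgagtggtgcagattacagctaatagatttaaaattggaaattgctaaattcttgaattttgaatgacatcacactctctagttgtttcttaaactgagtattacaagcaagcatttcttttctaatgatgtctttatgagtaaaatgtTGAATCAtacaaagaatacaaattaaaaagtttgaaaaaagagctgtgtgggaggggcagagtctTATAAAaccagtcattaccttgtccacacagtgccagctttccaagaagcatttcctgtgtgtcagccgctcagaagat
Areg: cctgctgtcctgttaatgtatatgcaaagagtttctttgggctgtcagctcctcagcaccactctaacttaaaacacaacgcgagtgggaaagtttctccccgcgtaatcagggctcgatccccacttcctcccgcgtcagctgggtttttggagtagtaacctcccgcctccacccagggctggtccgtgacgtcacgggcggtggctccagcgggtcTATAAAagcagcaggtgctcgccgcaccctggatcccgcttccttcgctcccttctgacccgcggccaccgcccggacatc
Il33: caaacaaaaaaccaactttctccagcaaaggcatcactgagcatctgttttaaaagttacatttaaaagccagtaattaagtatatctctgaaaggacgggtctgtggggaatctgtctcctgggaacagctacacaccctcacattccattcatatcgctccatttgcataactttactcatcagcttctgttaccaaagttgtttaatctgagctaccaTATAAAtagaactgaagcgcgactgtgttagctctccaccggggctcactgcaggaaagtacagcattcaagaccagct
Counted from the annotated start, TATAAA began at -43 in Sprr1a, at -31 in Areg and at -29 in Sprr2h, Serpinb2 and this Il33 window. Sprr1a held AP-1 letters at -146 and -116, Serpinb2 at -94 and Sprr2h at -198, and the Areg and Il33 windows held none.

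Members that encode secreted signals were Il33, Grem1 and Areg. Il33, an alarm cytokine of the interleukin 1 family that is stored in the nucleus and released from damaged cells, stood at 0.536 and 0.916 CPM in MB shKap1 cells, against 7.25 and 8.73 CPM in MB shCtrl cells. After 48 hours it stood at 1.88 CPM in MT shKap1 cells, against 43.1 CPM in MT shCtrl cells. Every shKap1 library was thus below every shCtrl library, and the log2 differences of the MB replicate 1, MB replicate 2 and MT pairs were -3.64, -3.18 and -4.49, the most negative mean of all members. The lead of control cells was widest at 48 hours, when the shCtrl library held 2148 counts and the shKap1 library 68.

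Grem1, a secreted antagonist that binds bone morphogenetic proteins (BMPs), was the most abundant member. It had 88.8 and 25.1 CPM in MB shKap1 cells, against 421 and 170.4 CPM in MB shCtrl cells, and 10.0 CPM in MT shKap1 cells, against 31 CPM in MT shCtrl cells. At 48 hours both libraries were below every myoblast library of their own kind, and both MB shKap1 libraries were below both MB shCtrl libraries, though the first of them was above the MT shCtrl library. The pair differences were -2.24, -2.76 and -1.62. Areg, the growth factor amphiregulin that activates the EGF receptor, had 1.95 and 2.61 CPM in MB shKap1 cells, against 6.41 and 6.67 CPM in MB shCtrl cells, and 0.91 CPM in MT shKap1 cells, against 2.31 CPM in MT shCtrl cells, with differences of -1.69, -1.34 and -1.30. Its replicates lay close together in both MB groups, and the MB groups did not overlap.

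Members included 3 small proline-rich proteins of the cornified envelope, the cross-linked shell of skin cells. Sprr1a, known also from injured neurons and stressed heart muscle, had 0.965 and 0.527 CPM in MB shKap1 cells, against 15.5 and 15.2 CPM in MB shCtrl cells. After 48 hours little was left in either group, with 0.221 CPM in MT shKap1 cells, against 0.662 CPM in MT shCtrl cells. The pair differences of -3.94, -4.72 and -1.40 are thus widest in myoblasts, and the MT value rests on 8 counts in shKap1 and 33 in shCtrl. Sprr2h had 4 and 0 counts in MB shKap1, 109 and 3 in MB shCtrl, 0 in MT shKap1 and 5 in MT shCtrl, so it was counted mainly in 1 control library. Sprr2a1 had 5 and 2 counts in MB shKap1, 18 and 23 in MB shCtrl, 1 in MT shKap1 and 10 in MT shCtrl. Its annotated exons overlap those of Sprr2a2 and the Sprr2 genes are near copies, so the assignment to a member of that family is uncertain.

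Other genes of the same gene cluster showed low myoblast values without meeting the rule at 48 hours. Sprr2k had 1.61 and 0.275 CPM in MB shKap1 cells, against 5.03 and 1.55 CPM in MB shCtrl cells, and 0.441 CPM in MT shKap1 cells, against 0.401 CPM in MT shCtrl cells. Prr9, a proline-rich gene near Sprr2a1, had 2.98 and 0.435 CPM in MB shKap1 cells, against 16.2 and 1.75 CPM in MB shCtrl cells, and 0.414 CPM in MT shKap1 cells, against 0.321 CPM in MT shCtrl cells. Both were lower in shKap1 within each myoblast pair and about level at 48 hours. Of 29 listed cornified envelope and epithelial keratin genes, 14 were counted. Of these 6, 7 and 5 were at least 2-fold lower in the MB replicate 1, MB replicate 2 and MT pairs. At least 2-fold higher were 1, 0 and 2, and the medians were -0.83, -0.84 and -0.25. The lower counts and the medians include the 3 members, which are lower in every pair by the rule. Over all counted genes 1.59%, 2.67% and 7.83% were at least 2-fold lower in these pairs. Of the 4 counted keratins, Krt8 stood at -0.92, -0.32 and -1.40, Krt14 at -0.74, -0.29 and -0.02, Krt7 at 1.01, -1.31 and 0.86 and Krt19 at -0.47, -0.21 and 1.22.

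Proteases and their inhibitors gave Serpinb2, Tpsab1 and Klk10. Serpinb2, which inhibits plasminogen activators, had 1.05 and 0.847 CPM in MB shKap1 cells, against 8.01 and 3.27 CPM in MB shCtrl cells. At 48 hours 2 counts were left in shKap1 and 8 in shCtrl, so its MT difference of -1.001 is within counting error, with a ratio of 0.344 (95% interval 0.0356 to 1.72). Tpsab1, a mast cell tryptase, had 46 and 0 counts in MB shKap1, 172 and 3 in MB shCtrl, 1 in MT shKap1 and 6 in MT shCtrl. Nearly all of its counts came from replicate 1 of each myoblast group. Tpsb2 and Cpa3, a second tryptase and a carboxypeptidase that also mark mast cells, were at 0 counts in all 6 libraries. Besides Tpsab1, 8 mast cell genes were listed, of which 1 was counted. These 8 summed to 0.236 and 0.0458 CPM in MB shKap1, against 0.191 and 0.123 CPM in MB shCtrl. At 48 hours they summed to 0.552 CPM in MT shKap1, against 0.602 CPM in MT shCtrl. Klk10, a kallikrein-related protease, had 6 and 0 counts in MB shKap1, 16 and 3 in MB shCtrl, 0 in MT shKap1 and 12 in MT shCtrl.

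Matrix and cell surface members included Has1, Itgbl1, Sod3 and Msln. Has1, a synthase of the matrix sugar hyaluronan, had 0.793 and 0.229 CPM in MB shKap1 cells, against 4.22 and 0.984 CPM in MB shCtrl cells, and 0.497 CPM in MT shKap1 cells, against 1.4 CPM in MT shCtrl cells. All shKap1 libraries lay below all shCtrl libraries, with differences of -2.34, -1.89 and -1.41.

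Sod3, the superoxide dismutase that is secreted and binds to the matrix, had 0.943 and 0.481 CPM in MB shKap1 cells, against 3.69 and 1.13 CPM in MB shCtrl cells, and 1.49 CPM in MT shKap1 cells, against 14.4 CPM in MT shCtrl cells. Its difference was widest at 48 hours (-1.91, -1.15 and -3.23), when only the shCtrl library was high. Msln, a membrane-anchored protein of mesothelial cells, had 0.257 and 8.84 CPM in MB shKap1 cells, against 1.88 and 23.1 CPM in MB shCtrl cells, and 2.98 CPM in MT shKap1 cells, against 24.9 CPM in MT shCtrl cells. The replicates of both myoblast groups differed more from each other than the groups did, so the MB groups overlap, and the pair differences were -2.65, -1.38 and -3.04. Upk3b, another mesothelial marker, was at 0.0828 CPM or below in every library. Besides Msln, 5 mesothelial markers were found, of which 1 was counted. These 5 summed to 1.07 and 0.0916 CPM in MB shKap1, against 0.524 and 0.148 CPM in MB shCtrl. At 48 hours they summed to 0.524 CPM in MT shKap1, against 0.642 CPM in MT shCtrl. Itgbl1, a secreted protein with integrin-like EGF repeats, had 0 and 9 counts in MB shKap1, 8 and 36 in MB shCtrl, 16 in MT shKap1 and 129 in MT shCtrl. Its MB groups overlap, and with 3 counts set for the empty library it was 2.97-fold lower in the MB replicate 1 pair. That value leaves out the counting error of the shCtrl library. The exact interval of the shKap1 over shCtrl ratio, which covers that error too, ended at 0.527.

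**Figure D2:**
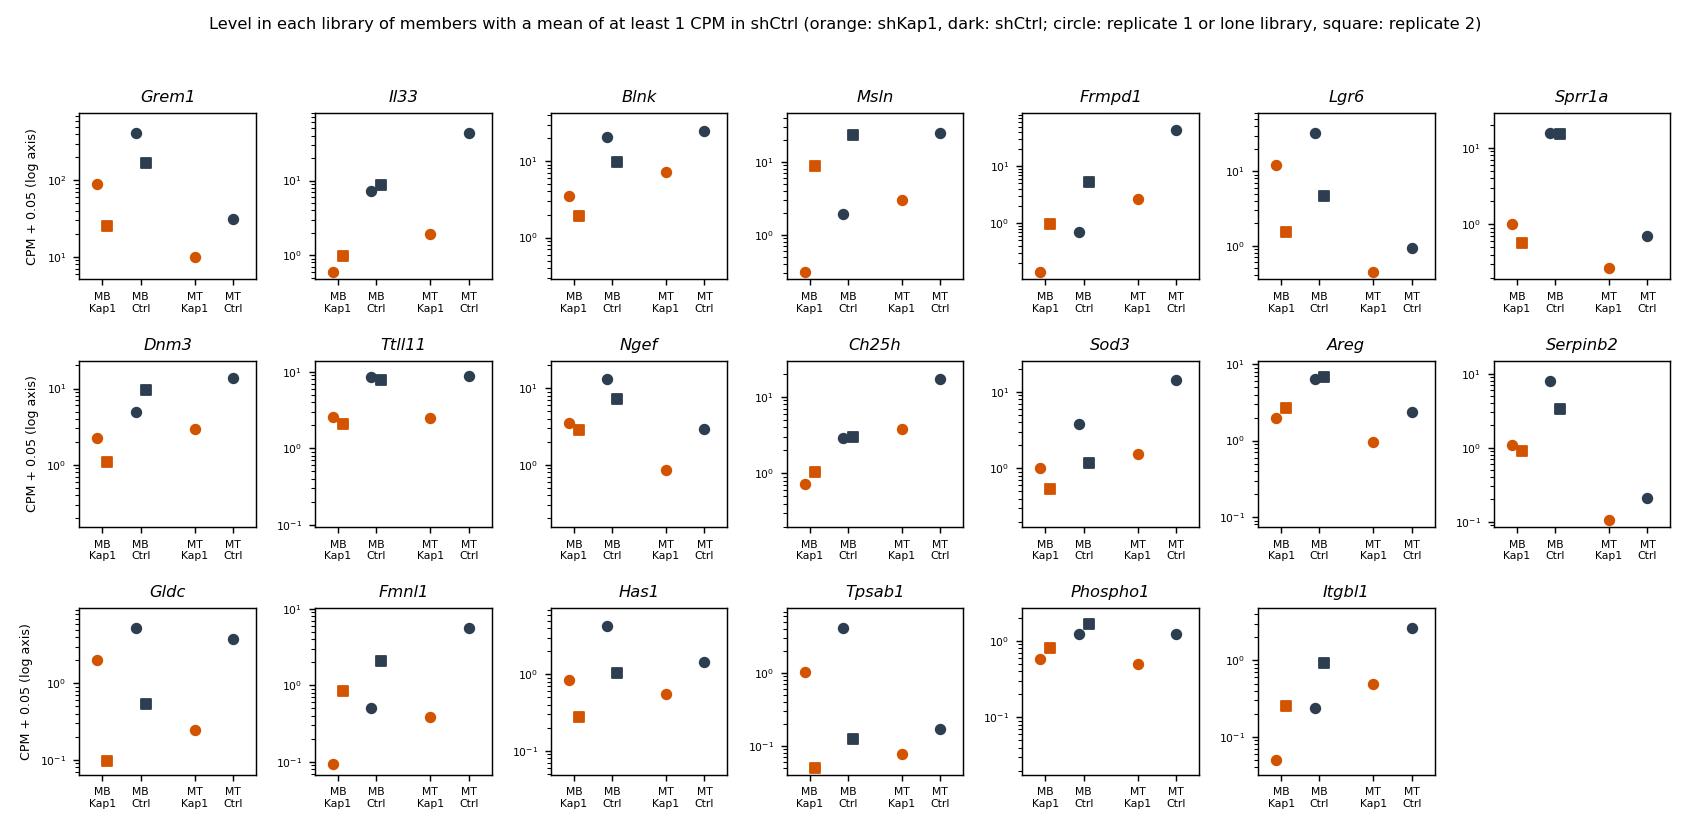
Level in each library (y axis, CPM + 0.05, log axis) of 20 of the 21 members with a mean of at least 1 CPM in shCtrl, for MB shKap1, MB shCtrl, MT shKap1 and MT shCtrl from left to right, with shKap1 in orange, shCtrl in dark, and circles and squares for replicates 1 and 2. Il33, Ttll11 and Dnm3 are lower in all shKap1 than in all shCtrl libraries, while for Msln, Lgr6 and Frmpd1 the MB replicates lie so far apart that the MB groups overlap.

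Receptors and membrane transport gave Lgr6, Bdkrb2, Slc14a1 and Gria1. Lgr6, a receptor for R-spondins that strengthens Wnt signalling and marks stem cells of skin, had 12.1 and 1.49 CPM in MB shKap1 cells, against 32.4 and 4.65 CPM in MB shCtrl cells. It was nearly gone at 48 hours, with 0.386 CPM in MT shKap1 cells, against 0.883 CPM in MT shCtrl cells, and the pair differences were -1.42, -1.61 and -1.10. Replicate 1 was the higher one in both myoblast groups, so that MB shKap1 replicate 1 lay above MB shCtrl replicate 2. Bdkrb2, the B2 receptor for bradykinin, had 6 and 8 counts in MB shKap1, 64 and 20 in MB shCtrl, 3 in MT shKap1 and 45 in MT shCtrl, and no shKap1 library reached a shCtrl library in CPM. The same held for Slc14a1, a urea transporter, with 1 and 5 counts in MB shKap1, 21 and 61 in MB shCtrl, 2 in MT shKap1 and 28 in MT shCtrl. Gria1, an AMPA-type glutamate receptor subunit of neurons, had 27 or fewer counts in every library and differences of -1.51, -1.01 and -1.47.

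Signalling proteins of the cytoplasm were Blnk, Ngef, Prkcb and Frmpd1. Blnk, an adaptor that links the B cell receptor to its effectors, had 3.43 and 1.85 CPM in MB shKap1 cells, against 20.5 and 9.59 CPM in MB shCtrl cells, and 7.15 CPM in MT shKap1 cells, against 24.9 CPM in MT shCtrl cells. Each shKap1 library was below each shCtrl library, with differences of -2.56, -2.34 and -1.79. Of its partners in B cells, Cd79a and Cd79b stayed at 0.276 CPM or below in every library. Besides Blnk, 6 genes of B cell receptor signalling were listed, of which 3 were counted. Without Blnk they summed to 17 and 4.58 CPM in MB shKap1, against 12.6 and 3.47 CPM in MB shCtrl, and to 5.1 CPM in MT shKap1, against 1.75 CPM in MT shCtrl, thus higher in shKap1 in each pair. Ngef, a guanine nucleotide exchange factor also called ephexin 1, had 3.47 and 2.77 CPM in MB shKap1 cells, against 13.3 and 7.26 CPM in MB shCtrl cells, and 0.8 CPM in MT shKap1 cells, against 2.93 CPM in MT shCtrl cells. The MB groups did not overlap, and both kinds of cell were lower at 48 hours (differences -1.93, -1.37 and -1.81). Its exons overlap those of Neu2 on the other strand, and since no source states whether counting used strand, its counts are uncertain.

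Frmpd1, a scaffold with FERM and PDZ domains that binds regulators of G protein signalling, had 0.0857 and 0.916 CPM in MB shKap1 cells, against 0.644 and 5.29 CPM in MB shCtrl cells, and 2.65 CPM in MT shKap1 cells, against 43.5 CPM in MT shCtrl cells. The MB groups overlap because replicate 2 was the higher one in both, and the 48-hour shCtrl library stood above all others (differences -2.35, -2.47 and -4.01). Prkcb, protein kinase C beta, had 2 and 0 counts in MB shKap1, 10 and 15 in MB shCtrl, 0 in MT shKap1 and 12 in MT shCtrl. With 3 counts set for each empty library, it was 5.37-fold lower in the MB replicate 2 pair and 2.91-fold lower in the MT pair. These values leave out the counting error of the shCtrl libraries. The exact interval of the shKap1 over shCtrl ratio, which covers that error too, ended at 0.26 and 0.495 in these pairs.

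Cytoskeletal and membrane-shaping proteins were Dnm3, Ttll11, Fmnl1 and Gas7. Dnm3, a dynamin, one of the GTPases that pinch off membrane vesicles, had 2.21 and 1.05 CPM in MB shKap1 cells, against 4.86 and 9.49 CPM in MB shCtrl cells, and 2.9 CPM in MT shKap1 cells, against 13.6 CPM in MT shCtrl cells. Every shKap1 library was below every shCtrl library, with the widest difference in the MB replicate 2 pair (-1.12, -3.11 and -2.21). Ttll11, a ligase that adds chains of glutamate to tubulin, was the most even member. It had 2.51 and 2.01 CPM in MB shKap1 cells, against 8.58 and 7.7 CPM in MB shCtrl cells, and 2.46 CPM in MT shKap1 cells, against 8.65 CPM in MT shCtrl cells, so that its 3 differences lay between -1.91 and -1.75. Fmnl1, a formin that elongates actin filaments, had 0.0429 and 0.801 CPM in MB shKap1 cells, against 0.453 and 2.04 CPM in MB shCtrl cells, and 0.331 CPM in MT shKap1 cells, against 5.5 CPM in MT shCtrl cells. The MB groups overlap for Fmnl1, with replicate 2 the higher one in both (differences -2.44, -1.30 and -3.86). Gas7, which binds actin and promotes outgrowth of processes, had 4 and 0 counts in MB shKap1, 21 and 4 in MB shCtrl, 4 in MT shKap1 and 45 in MT shCtrl, and its exons overlap those of Glp2r on the other strand.

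Metabolic enzymes were Ch25h, Gldc and Phospho1. Ch25h makes 25-hydroxycholesterol, an oxysterol that restrains sterol synthesis and viral entry. It had 0.686 and 1.01 CPM in MB shKap1 cells, against 2.86 and 2.98 CPM in MB shCtrl cells, and 3.72 CPM in MT shKap1 cells, against 17 CPM in MT shCtrl cells. The MB groups were apart, and the 48-hour libraries were above the myoblast libraries of their own kind (differences -1.98, -1.52 and -2.17). Gldc, the decarboxylase of the mitochondrial glycine cleavage system, had 1.97 and 0.0458 CPM in MB shKap1 cells, against 5.2 and 0.492 CPM in MB shCtrl cells, and 0.193 CPM in MT shKap1 cells, against 3.77 CPM in MT shCtrl cells. Replicate 1 was far above replicate 2 in both myoblast groups, which overlap, and the 48-hour difference was the widest (-1.38, -2.50 and -3.97). Phospho1, a phosphatase that frees phosphate for bone mineral, had 0.536 and 0.756 CPM in MB shKap1 cells, against 1.19 and 1.62 CPM in MB shCtrl cells, and 0.441 CPM in MT shKap1 cells, against 1.16 CPM in MT shCtrl cells, all 3 shKap1 libraries below all 3 shCtrl libraries (differences -1.08, -1.05 and -1.30). Its exons overlap those of Abi3 and Zfp652.

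In all, 9 members have annotated exons that overlap another gene. Beside those named above they are Serpinb2 (with Serpinb10), Ch25h (Gm26902), Dnm3 (2810442N19Rik and Gm10176), Fmnl1 (Gm20511) and Bean1 (Gm45892). The remaining members were counted thinly. Bean1, a membrane protein that binds a ubiquitin ligase, had 5 to 8 counts in the shKap1 libraries and 13 to 26 in the shCtrl libraries. The noncoding gene 4933421A08Rik had 0 to 4 counts in shKap1 and 8 to 17 in shCtrl, the antisense gene Gm16239 had 1 to 2 in shKap1 and 8 to 10 in shCtrl, and the pseudogene Gm650 had 0 to 2 in shKap1 and 3 to 10 in shCtrl. ENSMUSG00000071564, for which no symbol was found, had 0 to 4 counts in shKap1 and 3 to 30 in shCtrl. Predicted genes and pseudogenes can share reads with relatives, so these values are uncertain.

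Relatives of the members were compared in families chosen after the values were seen. Of the EGF receptor ligands, Ereg, the next coding gene to Areg, had 16.7 and 6.53 CPM in MB shKap1 cells, against 32.2 and 13 CPM in MB shCtrl cells, and 4.86 CPM in MT shKap1 cells, against 7.12 CPM in MT shCtrl cells. It was lower in shKap1 in each pair without reaching the rule (-0.95, -0.99 and -0.55). Btc, the neighbour on the other side of Areg, was also lower in each pair (-0.29, -1.61 and -0.43). The remaining counted ligands were Hbegf (0.17, -0.01 and -1.02), Tgfa (0.64, -0.37 and 0.59) and Egf (0.32, 0.52 and -0.26). Has2, another hyaluronan synthase, stood at -0.05, -0.07 and -0.49, where Has1 stood at -2.34, -1.89 and -1.41.

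Sod1 and Sod2, the cytosolic and mitochondrial dismutases, stood at 0.30, 0.12 and 0.77 and at -0.13, -0.05 and -0.21, and the other dynamins Dnm1 and Dnm2 at -0.49, -0.68 and -0.92 and at 0.05, 0.23 and 0.07. Lgr4 was higher in shKap1 in each pair (0.41, 0.42 and 1.72), opposite to Lgr6. Gcsh, Amt and Dld, which work with Gldc, were between -0.27 and 0.49 in all pairs. Among 11 counted tubulin tyrosine ligase-like genes Ttll11 was the only one at -1 or less in any pair. Of 24 counted BMP ligands, antagonists and targets, Grem1 was the only member, Bmp4, a ligand that Grem1 binds, was at least 2-fold higher in all 3 pairs (2.36, 1.71 and 1.03), and the targets Id1 (-0.24, 0.45 and -0.08), Id3 (0.16, 0.89 and 0.95) and Smad6 (0.53, 0.72 and 1.31) were not lower by 2-fold in any pair. Bdkrb1, the B1 bradykinin receptor, was below -1 in the MB replicate 2 and MT pairs (-0.47, -2.02 and -2.15). In the MB replicate 2 pair it stood at 0.0229 CPM in shKap1 and 0.246 CPM in shCtrl, so that value rests on few counts.

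**Figure D3:**
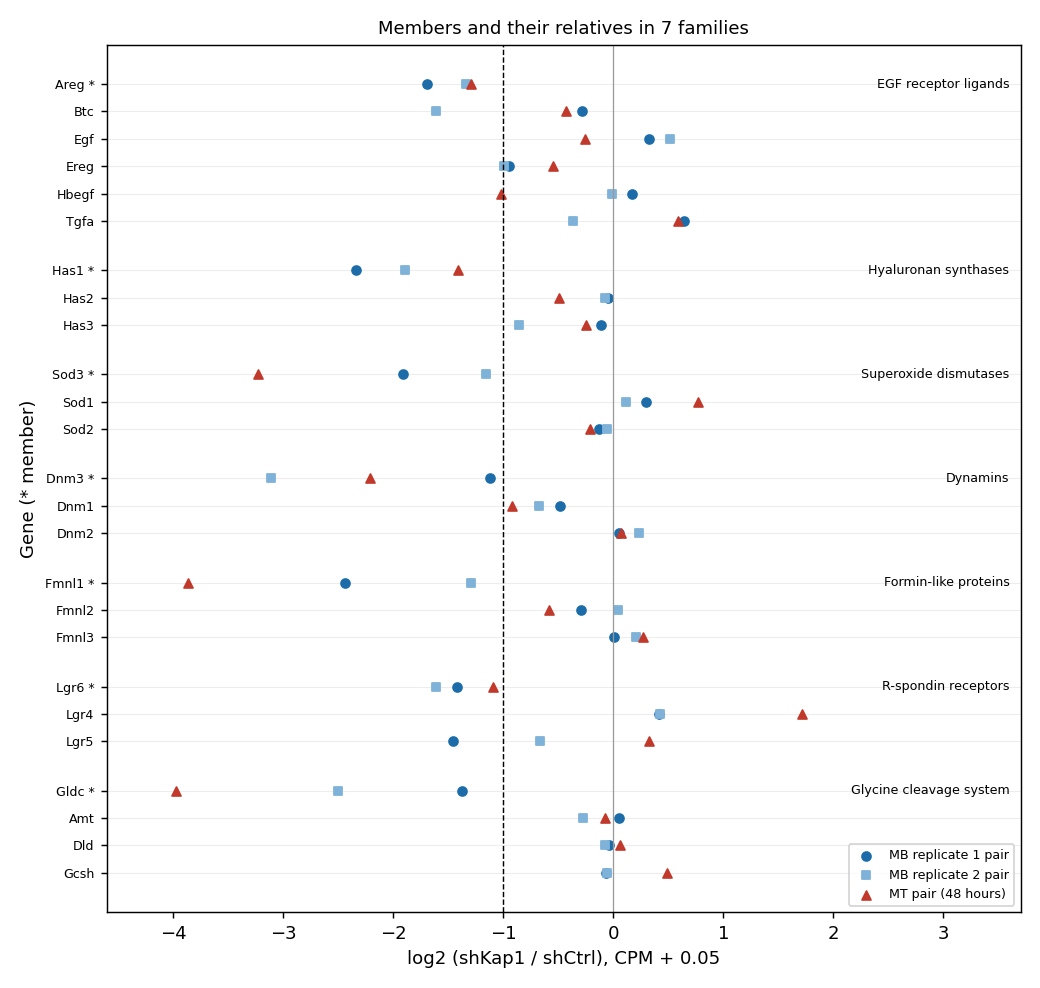
Knockdown difference (x axis, log2 of shKap1 over shCtrl, CPM + 0.05) of members, marked with an asterisk, and their counted relatives in 7 families, with 1 point for each pair of libraries. Members lie left of the dashed line at -1 in all 3 pairs, and of the relatives Ereg lies between -0.99 and -0.55 in all pairs.

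Of all counted genes, 0.21% met the rule, Trim28 included. Counts of 0 or 1 member in lists of this size are thus a description and not a result about the lists. Of 24 counted interleukin, chemokine and prostaglandin genes only Il33 was a member, and medians were 0.11, -0.05 and -0.45. Ptgs1, a prostaglandin synthase, was at -1.12 and -1.09 in the MB pairs and -0.02 at 48 hours. Il1rl1, the receptor for IL-33, stood at -0.04, -1.52 and 0.45. Of the 16 counted genes of plasminogen activation and serpins only Serpinb2 was a member, and Plat and Plau, the plasminogen activators, were between -0.51 and 0.35 in all pairs. Of 19 counted genes of hyaluronan synthesis and turnover only Has1 was a member. The 15 common control genes, the 22 AP-1 subunits and immediate early genes, the 22 YAP and TEAD targets, the 52 counted contractile and late muscle genes, the 20 myogenic regulators and the 12 counted synaptic leucine rich repeat genes held 0 members. Of the 52 contractile genes, 4, 5 and 51 were at least 2-fold lower in the MB replicate 1, MB replicate 2 and MT pairs, with medians of 0.11, -0.38 and -5.28.

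The course of the members in differentiation was not used by the rule, although the rule read the same libraries. In control cells the MT library was above both MB libraries for 15 of the 34 members, below both for 10 and between them for 9, where 40.2% of all counted genes were above and 40.9% below. In knockdown cells it was above both for 11 and below both for 11, where 44.4% and 30.3% of all counted genes were. Above in both kinds of cell were 10 members, among them Il33, Ch25h, Frmpd1, Blnk, Sod3, Dnm3 and Itgbl1. Below in both were 9, among them Grem1, Sprr1a, Lgr6, Ngef, Areg, Serpinb2 and Phospho1. The members thus held genes with higher and with lower levels at 48 hours.

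With the quasi-likelihood test of edgeR over all 6 libraries and 16472 genes, 33 of the 34 members passed the filter on low counts. In control differentiation 0 members and 0% of all genes had an adjusted p under 0.05 (Benjamini-Hochberg). An unadjusted p under 0.05 was found for 9 members, 4 of them higher in MT and 5 lower, where 25.3% of all tested genes had one, and DESeq2 called 10 members (14.5% of all genes). The smallest adjusted p among members in edgeR was that of Sprr1a (log2 change -4.52, SE 0.54, adjusted p = 0.0629), ahead of Ch25h (2.55, SE 0.352, 0.0666) and Il33 (2.44, SE 0.374, 0.0698). The log2 change of Sprr1a was -4.51 with either MB shCtrl library left out and -4.52 with either MB shKap1 library left out. The MB shKap1 libraries enter this contrast only through the shared estimate of the spread. In knockdown differentiation edgeR called 0 members and 0% of genes, 6 members had an unadjusted p under 0.05 (15.3% of all genes) and DESeq2 called 5 (5.12%). Each MT group is 1 library, which the test assumes to vary as the MB libraries do.

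**Figure D4:**
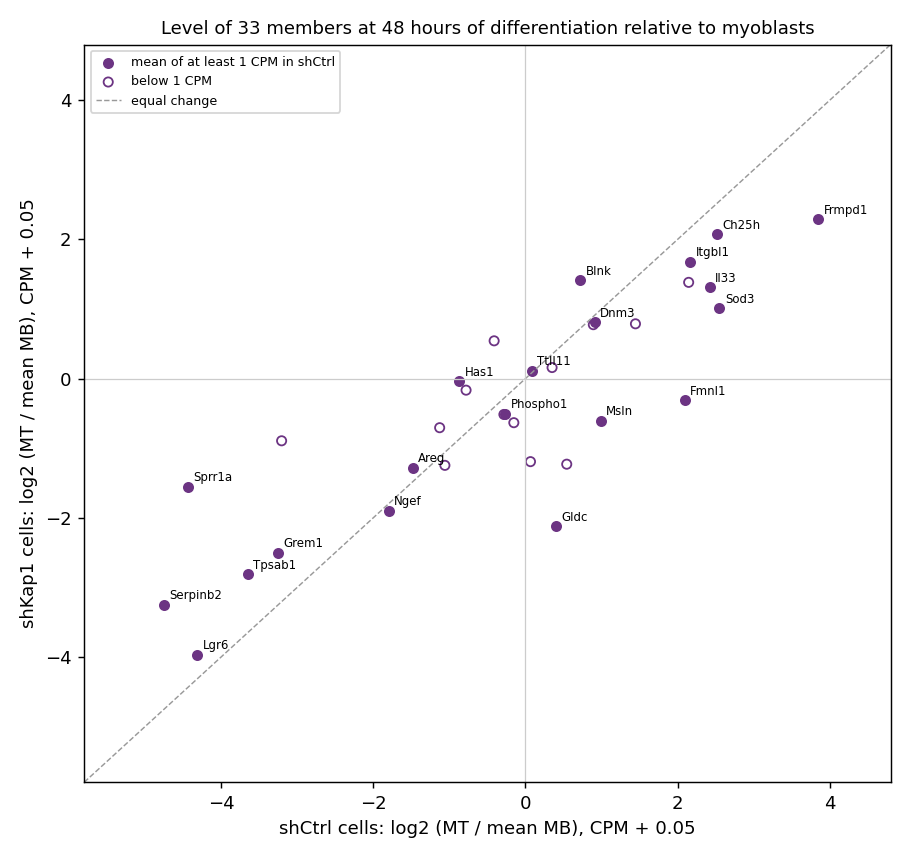
Level at 48 hours relative to the mean of both myoblast libraries (log2, CPM + 0.05) in shKap1 cells (y axis) and shCtrl cells (x axis) for 33 of the 34 members, filled where the shCtrl mean was at least 1 CPM. Members spread from Serpinb2 and Lgr6 at the lower left to Frmpd1 and Ch25h at the upper right, and Gldc, Msln and Fmnl1 lie above 0 in shCtrl and below 0 in shKap1 cells.

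Replicates of the myoblast groups differed in many members. Between replicates 2 and 1, 14 members differed at least 2-fold in MB shKap1 and 17 in MB shCtrl, where 14.5% and 11.8% of all counted genes did. Higher in replicate 2 by 2-fold in both groups were 5 members, which include Msln, Frmpd1 and Fmnl1, and lower in both were 8, which include Gldc, Lgr6, Has1 and Tpsab1. Il33, Ttll11, Areg and Ch25h differed by less than 2-fold in both groups. Among the 21 members of at least 1 CPM the counts were 10 in MB shKap1 and 12 in MB shCtrl, where 9.98% and 8.08% of all such genes differed so.

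By chromosome, 5 members lie on chromosome 1, 4 each on 11 and 19, 3 each on 3 and 17, and no more than 2 on any other. Of all counted genes, 5.84% lie on chromosome 1, 8.61% on 11, 3.28% on 19, 4.89% on 3 and 4.71% on 17. Gene order of a later build (RefSeq, GRCm38.p6) placed 30 of the 34 members among coding genes. Only Il33 and Gldc had another member within 3 coding genes, namely each other. Between them lie Trpd52l3, at 0 counts in all 6 libraries, and Uhrf2, a ring finger protein gene. Uhrf2 had 135 and 84.9 CPM in MB shKap1 cells, against 163 and 100.3 CPM in MB shCtrl cells, and 114 CPM in MT shKap1 cells, against 80.9 CPM in MT shCtrl cells. It was not lower by 2-fold in any pair. Of 103 counted genes within 3 coding genes of a member that were no members themselves, 59, 58 and 54 were below 0, with medians of -0.09, -0.03 and -0.02 in the MB replicate 1, MB replicate 2 and MT pairs. Medians over all counted genes were 0.03, 0.02 and 0.15, and the difference was not tested.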

How the data were processed

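The submitters' processing notes name TopHat2 2.0.11, HTSeq and the genome build mm9. The deposited values are raw counts, 1 file of 37991 Ensembl genes for each of 6 libraries. The annotation release, counting mode and strand setting were not given in the sources used here. Summary lines that name no gene (reads in no gene, 5.18% to 8.07%, and ambiguous reads, 2.81% to 2.93%) were left out. Symbols came from GENCODE M21 by Ensembl identifier (32919 found), gene order and promoter windows from RefSeq tables of GRCm38.p6, a later build than that of the counts.

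CPM used total counts on genes. A floor of 3 counts corresponds to 0.0602 to 0.0828 CPM. Intervals and floors cover counting error only. Differentiation was tested by the quasi-likelihood method of edgeR 4.0.16 (R 4.3.3, robust, TMM factors 0.972 to 1.07, filterByExpr by group, 16472 genes, 2 residual degrees of freedom), 1 mean per group over all 6 libraries, and with DESeq2 1.42.0 as an alternative. The scripts were tested on simulated data. Exon lengths and overlaps came from GENCODE M21.

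Members, lists and tests were chosen with earlier results of these data known, and the families of relatives and the mast cell, mesothelial and B cell markers after the values were seen. Named members are those with a mean of at least 1 CPM in shCtrl, up to 25, the 5 of highest mean, those in a list and those nearest the threshold. Other members were added, and relatives and neighbouring genes where a member's result turns on them. Of the 34 members 1, and some other genes, are counted in the totals and not reported here by name. Alternatives were the pseudocount, count minimum, scaling, pairs required, pairing, filter, test and each library left out.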

Additional observations from a re-analysis of the deposited data

Results flagged for a closer look

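In 2 of the 34 members the MT library lay on opposite sides of both MB libraries in shKap1 and shCtrl cells, and this difference was not tested. The share of all counted genes placed so was not taken, and the rule read the same libraries. Nothing about the members is thus read from this count. The noncoding gene 4933421A08Rik was below both myoblast libraries at 48 hours in shKap1 cells (log2 of MT over mean MB -1.23, CPM + 0.05) and above both in shCtrl cells (0.54), a difference of -1.77. The antisense gene Gm16239 was above both in shKap1 cells (0.54) and below both in shCtrl cells (-0.41), a difference of 0.95. Both rest on 17 or fewer counts in every library, and their strand assignment is uncertain. Groups of 2 libraries or fewer were not examined for single samples far from the others.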

How the results depend on the processing

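The number of genes that met the rule was 34. It was 34 without a count minimum, 24 with at least 50 counts, 39 with TMM scaling and 40 with DESeq2 size factors. All 34 members were kept under both scalings, which shifted the median of all genes in the MT pair by -0.16 (TMM against total counts). A pseudocount of 0.5 CPM left 7, since most members are low. Requiring the other pairs alone after leaving out 1 gave 72 to 140 genes (140 without the MB replicate 1 pair, 109 without the replicate 2 pair, 72 without the MT pair). With no replicate block, each MB shKap1 library being set against the mean of both MB shCtrl libraries, 43 genes met it, 25 of them members.

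Called members in control differentiation (0 in the edgeR test as reported) were 10 with DESeq2, 4 without the filter on low counts and 0 to 1 when MB libraries were left out. With the replicate block, a batch term that puts the MT libraries with MB replicate 1 by a mark their file names share, edgeR called 17 members in control differentiation (44.9% of all tested genes) and 14 in knockdown differentiation (33.1%). In knockdown differentiation DESeq2 called 5. The pairing rests on the replicate numbers and that mark, whose meaning the labels do not give. Replicate 2 minus replicate 1 correlated between knockdown and control with r = 0.826 across 16472 genes, which are not independent replicates. Under RLE and total-count scaling 0 members were called in either contrast. The direction of the 8 members of at least 1 CPM with an unadjusted p under 0.05 in control differentiation was the same under all 9 alternatives. Those that left out an MB shKap1 library could hardly change a direction, since these libraries are not part of that contrast. Depth limits the 13 members below 1 CPM, whose counts are few.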
